A study of Homo sapiens with 16 samples.

Results

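The genes examined were 9 genes of the major histocompatibility complex (MHC) class I and antigen processing pathway: the heavy chains HLA-B, HLA-C, HLA-E and HLA-F, the light chain B2M, the peptide transporter subunits TAP1 and TAP2, the loading factor TAPBP (tapasin) and the transcriptional regulator NLRC5. They were chosen by symbol, through the Ensembl identifiers of the count tables, and form 9 of 58676 gene identifiers. The rule itself uses no measured value, but the list was set with earlier results of these data known. All 9 passed the low-count filter in both cell lines.

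The data were RNA-seq counts from A549, a human lung cancer line grown in RPMI, and from SUM159, a line of human breast cancer of the triple negative type, grown in DMEM/F12 with insulin and hydrocortisone. Each line was left untreated (UT), or was treated for 16 h with 2 µM palbociclib (PD), an inhibitor of the cell cycle kinases CDK4 and CDK6, with 3 µM indisulam (IN), a compound that recruits the splicing factor RBM39 to the ubiquitin ligase receptor DCAF15 for degradation, or with both at the same concentrations (P+I). Each of the 8 groups had 2 libraries. The submitters call these technical duplicates, so the p-values measure the spread between such duplicates and not between independent cultures. Within each line the cells were a single established line in culture, and no vehicle was named for the untreated cells.

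Class I molecules display peptides from inside the cell to CD8 T cells and natural killer cells. The proteasome and its interferon-inducible form, the immunoproteasome, cut proteins into peptides, the TAP1 and TAP2 transporter carries them into the endoplasmic reticulum, and tapasin with calreticulin and ERp57 helps load them onto a heavy chain paired with B2M. NLRC5 joins the RFX, CREB and NF-Y factors at class I promoters, while interferons act in part through IRF1, and EZH2, the catalytic subunit of the Polycomb repressor PRC2, is known to silence class I genes in some tumours.

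The libraries held between 18306636 and 34075588 counts in genes, so that 3 counts corresponded to 0.088 to 0.16 CPM, the count of a gene per 1e6 counts of its library. CPM values within a line are scaled by TMM, a normalisation that sets the bulk of genes equal between libraries. In A549 all 4 epithelial markers were counted, EPCAM at 20.3 CPM or more, CDH1 at 54.1 CPM or more and the keratins KRT8 and KRT18 above both, and the mesenchymal marker VIM lay between 699 and 930.0 CPM. In SUM159 the epithelial markers were split, with EPCAM and CDH1 at or below 0.60 CPM, KRT8 at 533 to 792 CPM and KRT18 at 326 to 449.6 CPM, while VIM lay between 2755 and 4144 CPM, and the hormone receptor genes ESR1 and PGR summed to 0.80 CPM or less. CDKN2A, the gene of the cell cycle inhibitor p16 and of the unrelated protein p14ARF, was counted at 1.35 to 2.48 CPM in A549, which the study describes as lacking p16, and at most 0.048 CPM in SUM159. By Western blot, the study reports an increase of p16 protein in treated SUM159 cells, another measure and after a longer treatment. These counts per gene cannot tell the transcripts of p16 and p14ARF apart. Of 7 leukocyte markers, CD3E and MS4A1 stayed at or below 0.048 CPM in every library, and the 7 summed to 7.21 to 12.97 CPM in A549 and 5.45 to 7.53 CPM in SUM159, mostly CD14 in A549 and PTPRC in SUM159.

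In untreated cells every class I gene had a higher level in SUM159 than in A549. HLA-B was 3.73 ± 0.062 higher on the log2 scale (SE, adjusted p = 4.13e-25), the widest gap among the 9 genes, followed by HLA-C at 1.77 ± 0.053 (SE, adjusted p = 6.00e-20) and NLRC5 at 1.74 ± 0.070 (SE, adjusted p = 3.48e-17). The gap was narrowest for TAPBP, 0.48 ± 0.045 (SE, adjusted p = 6.88e-10). The other 5 genes lay between these, with TAP1 at 1.65, TAP2 at 1.31, HLA-F at 1.29, B2M at 1.20 and HLA-E at 1.08. All 9 passed the test, in a comparison in which 76.3% of all genes differed in either direction and the median of all genes was -0.013; the median of the 9 was 1.31. HLA genes are highly polymorphic and share sequence, so the number of reads that a line's alleles lose on the reference or share among heavy chains was not measured, and the allele and the level cannot be told apart in the gap of HLA-B or HLA-C. On chromosome 6, 4.36% to 6.54% of reads were not uniquely aligned.

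Per kilobase of exon, B2M had the highest level in both lines, at 94.6 ± 2.25 (SD, n = 2) CPM per kb in untreated A549 and 238 ± 7.26 (SD, n = 2) CPM per kb in untreated SUM159. In A549 the order that followed was HLA-E, HLA-C, TAPBP, TAP1, HLA-B, TAP2, NLRC5 and HLA-F, from 18.998 ± 0.818 (SD, n = 2) down to 0.685 ± 0.139 (SD, n = 2) CPM per kb. In SUM159 it was HLA-C, HLA-E, HLA-B, TAPBP, TAP1, TAP2, NLRC5 and HLA-F, from 63.9 ± 1.02 (SD, n = 2) down to 1.83 ± 0.172 (SD, n = 2) CPM per kb. HLA-B thus ranked 6 in A549 and 4 in SUM159. No neighbours in the untreated order overlapped between their 2 libraries. With the length of the longest coding transcript in place of all exon bases, TAPBP moved to rank 2 and HLA-E to rank 4 in A549, NLRC5 and HLA-F changed places there, and HLA-B and HLA-E changed places in SUM159. In treated SUM159 cells NLRC5 and TAP2 overlapped under palbociclib and under the combination.

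**Figure D1:**
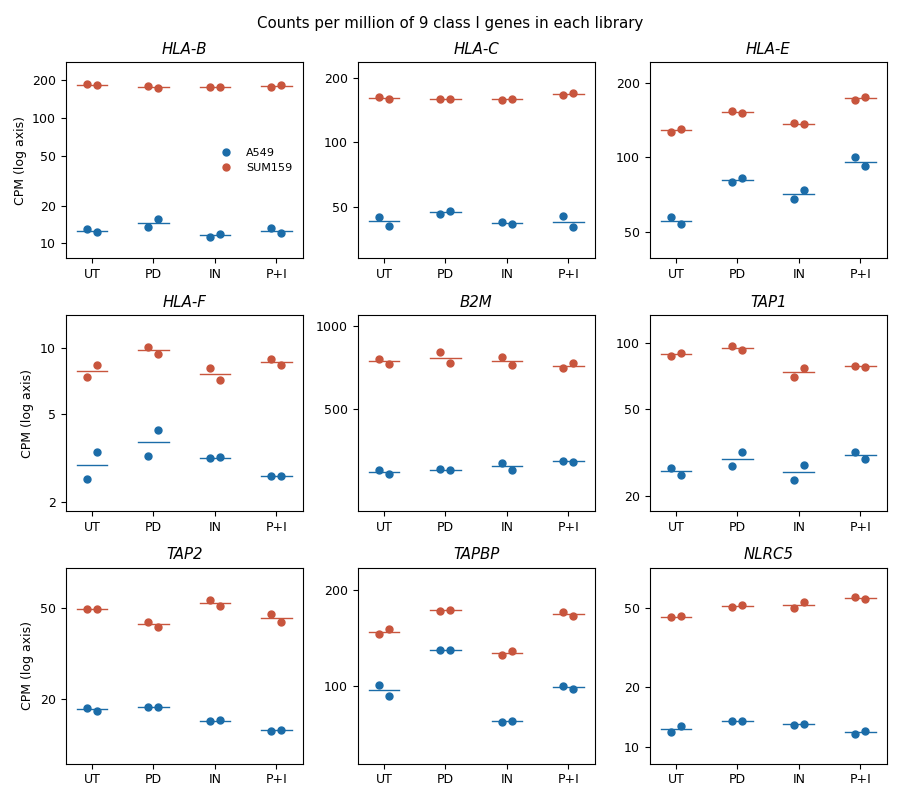
CPM (log axis) of the 9 genes in each library, scaled within each line, with the 2 libraries of a group as points and their mean as a bar; UT, untreated; PD, palbociclib; IN, indisulam; P+I, both. Within the same treatment SUM159 lies above A549 in every panel. HLA-E is higher in the treated groups of both lines, and TAPBP is higher with palbociclib and lower with indisulam.

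HLA-E was the class I gene with the largest change from untreated cells. It encodes a heavy chain that presents leader peptides of other class I chains to the NKG2A receptor of natural killer cells, and it lies on chromosome 6 (GRCh38, chr6:30489509-30494194, plus strand) with no overlapping gene. Its level in A549 was 57.2 and 53.8 CPM in the untreated libraries, 79.5 and 82.7 CPM with palbociclib, 67.8 and 74.01 CPM with indisulam and 100.2 and 92.1 CPM with the combination. In SUM159 the same groups gave 127 and 129.6, 153 and 152, 137 and 136 and 170.2 and 175 CPM. The groups did not overlap in any comparison within a line, and the combination was highest in both.

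HLA-E rose in A549 by 0.55 ± 0.061 (SE, adjusted p = 4.85e-06) with palbociclib, by 0.35 ± 0.062 (SE, adjusted p = 0.00029) with indisulam and by 0.79 ± 0.061 (SE, adjusted p = 4.64e-08) with the combination, the last a 73.1% higher mean CPM. In SUM159 it rose by 0.25 ± 0.038 (SE, adjusted p = 2.67e-05) with palbociclib and by 0.43 ± 0.037 (SE, adjusted p = 2.46e-08) with the combination, 34.7% in mean CPM. With indisulam alone the SUM159 difference of 0.089 ± 0.038 (SE, adjusted p = 0.0643) missed the threshold of 0.05, and it passed with total-count scaling (0.14, adjusted p = 0.00568) and with a crossed pairing of the duplicates (0.089, adjusted p = 0.0497). The crossed pairing, here and below, was chosen after correlations between the duplicates were seen, so a pass under it is no independent support. Under it the calls over all genes in this comparison rose from 7538 to 7979. The combination was also above each drug alone, by 0.24 and 0.18 over palbociclib and by 0.44 and 0.34 over indisulam in A549 and SUM159, all past the threshold. The sum of both single-drug changes and the combination did not differ past the threshold in A549, -0.11 ± 0.084 (SE, adjusted p = 0.537), or in SUM159, 0.091 ± 0.053 (SE, adjusted p = 0.38). Every call of HLA-E within a line was kept with each library left out in turn. In A549 the leukocyte markers summed to 7.21 to 8.16 CPM untreated and 10.36 to 12.97 CPM with the combination, in SUM159 to 5.60 to 5.88 and 6.80 to 7.53 CPM. CD14 lay between 5.13 and 8.51 CPM over all A549 libraries and PTPRC between 3.05 and 4.54 CPM over all SUM159 libraries. The lymphocyte markers CD3E and MS4A1 were at or near 0 in every library. Each culture was a single established line, and a part of these markers in the change was not tested.

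HLA-B and HLA-C, the classical heavy chains that present peptides to CD8 T cells, had no change past the threshold in any comparison of drugs in either line. HLA-B (chr6:31353872-31367067, minus strand) shares exon bases with DHFRP2 and MIR6891 on its strand. Its level in A549 was 12.97 and 12.3 CPM untreated, 13.6 and 15.6 CPM with palbociclib, 11.3 and 11.8 CPM with indisulam and 13.2 and 12.05 CPM with both. The SUM159 values of HLA-B were 186 and 182, 182 and 174, 176 and 177 and 178 and 183 CPM. The combination and untreated libraries overlapped in both lines.

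The estimate for HLA-B with the combination was -0.0044 ± 0.10 (SE, adjusted p = 0.974) in A549 and -0.030 ± 0.038 (SE, adjusted p = 0.506) in SUM159. With palbociclib it was 0.22 ± 0.097 (SE, adjusted p = 0.0792) in A549, which passed the threshold without A549 palbociclib replicate 1 (0.30, adjusted p = 0.0388) or with total-count scaling (0.28, adjusted p = 0.0333). The A549 difference between the combination and palbociclib, -0.23 ± 0.094 (SE, adjusted p = 0.0581), passed likewise without that library (-0.30, adjusted p = 0.0292) and with the crossed pairing (-0.22, adjusted p = 0.0459). Total-count scaling, which moves the median of all genes by 0.15 in SUM159 with the combination, turned the SUM159 estimate to 0.12, past the threshold.

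HLA-C (chr6:31268749-31272130, minus strand, no overlapping gene) was at 44.7 and 40.7 CPM in untreated A549 and 44.9 and 39.98 CPM with the combination. In SUM159 these values were 162 and 158 and 166 and 169 CPM. The estimates were -0.0099 ± 0.069 (SE, adjusted p = 0.913) and 0.064 ± 0.036 (SE, adjusted p = 0.132), and the single-drug estimates ranged from -0.032 to 0.14 over both lines. In A549, HLA-C was lower with the combination than with palbociclib by an amount that missed the threshold, -0.15 ± 0.066 (SE, adjusted p = 0.0753); without A549 combination replicate 1 it was -0.21 (adjusted p = 0.0205). Total-count scaling brought HLA-C past the threshold in A549 with palbociclib (0.20) and in SUM159 with palbociclib (0.095, against -0.011 under TMM) and with the combination (0.21).

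HLA-F (chr6:29722775-29738528, plus strand) encodes a nonclassical heavy chain and was the lowest of the 9 genes. It overlaps exons of HLA-F-AS1 and RPL23AP1 on the other strand. Its level was 2.53 and 3.38 CPM in untreated A549, 3.25 and 4.23 CPM with palbociclib, 3.17 and 3.19 CPM with indisulam and 2.62 and 2.62 CPM with the combination. In SUM159 it was 7.38 and 8.43, 10.2 and 9.46, 8.14 and 7.20 and 8.89 and 8.41 CPM. The untreated and palbociclib libraries overlapped in A549 and not in SUM159.

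In SUM159, HLA-F rose with palbociclib by 0.31 ± 0.11 (SE, adjusted p = 0.0214). That call was lost without untreated replicate 1 (0.22, adjusted p = 0.189), without palbociclib replicate 1 (0.27, adjusted p = 0.0835) and with DESeq2 (adjusted p = 0.0982). In A549 the estimate was 0.38 ± 0.19 (SE, adjusted p = 0.115), and HLA-F was lower with the combination than with palbociclib, -0.55 ± 0.18 (SE, adjusted p = 0.0227). That call was lost without A549 palbociclib replicate 2 (-0.30, adjusted p = 0.315), combination replicate 1 (-0.53, adjusted p = 0.0621) or combination replicate 2 (-0.54, adjusted p = 0.055), and with DESeq2 (adjusted p = 0.162).

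B2M, the light chain shared by all class I molecules, lies on chromosome 15 (chr15:44711358-44718851, plus strand, no overlapping gene). Its level was 300.2 and 290.2 CPM in untreated A549 and 322 and 321 CPM with the combination, and 759.6 and 728 and 699.7 and 733 CPM in SUM159. The combination lay above the untreated libraries in A549 and overlapped them in SUM159. The A549 rise was 0.12 ± 0.042 (SE, adjusted p = 0.0193), a 9.02% higher mean CPM, and no longer passed without A549 untreated replicate 2 (0.10, adjusted p = 0.133), combination replicate 1 (0.12, adjusted p = 0.0505) or combination replicate 2 (0.12, adjusted p = 0.0619). The SUM159 estimate was -0.054 ± 0.045 (SE, adjusted p = 0.306). No single-drug change of B2M passed the threshold in either line under TMM, and in SUM159 palbociclib passed with total-count scaling (0.15). Against palbociclib, the combination in SUM159 gave -0.097 ± 0.045 (SE, adjusted p = 0.0859), and -0.16 (adjusted p = 0.00605) without SUM159 palbociclib replicate 2.

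With the combination TAP1 was higher than in untreated cells in A549 and lower in SUM159, and the A549 call depended on single libraries. Together with TAP2 it forms the transporter that brings peptides into the endoplasmic reticulum, and it lies at chr6:32845209-32853816 on the minus strand, overlapping exons of PSMB8-AS1 on the other strand. Its level in A549 was 26.9 and 24.9 CPM untreated, 27.3 and 31.8 CPM with palbociclib, 23.7 and 27.7 CPM with indisulam and 31.6 and 29.6 CPM with the combination. For SUM159 the TAP1 values were 87.2 and 90.3, 96.5 and 93.1, 70.1 and 76.8 and 78.9 and 77.5 CPM. The combination libraries lay above the untreated ones in A549 and below them in SUM159.

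TAP1 fell in SUM159 with indisulam, -0.27 ± 0.049 (SE, adjusted p = 0.000229), and with the combination, -0.18 ± 0.048 (SE, adjusted p = 0.00326). It was lower with the combination than with palbociclib there as well, -0.28 ± 0.047 (SE, adjusted p = 0.000114). With total-count scaling the combination estimate in SUM159 shrank to -0.034 and did not pass. In A549 TAP1 rose with the combination, 0.24 ± 0.093 (SE, adjusted p = 0.0383), a call lost without untreated replicate 1 (0.30, adjusted p = 0.0548), untreated replicate 2 (0.19, adjusted p = 0.202) or combination replicate 1 (0.19, adjusted p = 0.118), and with DESeq2 (adjusted p = 0.0774). The A549 difference from indisulam, 0.25 ± 0.090 (SE, adjusted p = 0.04), was lost without indisulam replicate 1 (0.14, adjusted p = 0.37), without combination replicate 1 (0.23, adjusted p = 0.0863) and with DESeq2 (adjusted p = 0.0741). The A549 palbociclib estimate, 0.20 ± 0.091 (SE, adjusted p = 0.0887), passed without palbociclib replicate 1 (0.29, adjusted p = 0.0334), and the SUM159 difference of the combination from indisulam, 0.089 ± 0.048 (SE, adjusted p = 0.131), without indisulam replicate 2 (0.15, adjusted p = 0.046).

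TAP2 (chr6:32821833-32838739, minus strand) shares exon bases with an unnamed gene on its strand. Its level in A549 was 18.4 and 17.9 CPM untreated, 18.5 and 18.6 CPM with palbociclib, 16.05 and 16.2 CPM with indisulam and 14.6 and 14.8 CPM with the combination. In SUM159 these were 49.3 and 49.4, 43.5 and 41.4, 53.8 and 50.99 and 47.1 and 43.2 CPM. The lowest group was the combination in A549 and palbociclib in SUM159.

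TAP2 fell in A549 with the combination, -0.31 ± 0.079 (SE, adjusted p = 0.00419), and differed from palbociclib by -0.34 ± 0.075 (SE, adjusted p = 0.00167). In SUM159 it fell with palbociclib, -0.22 ± 0.057 (SE, adjusted p = 0.00348), a call lost with total-count scaling (-0.11, adjusted p = 0.102). The SUM159 combination was below indisulam, -0.21 ± 0.054 (SE, adjusted p = 0.00364); this was lost without indisulam replicate 1 (-0.18, adjusted p = 0.0507), without combination replicate 2 (-0.15, adjusted p = 0.0572) and with total-count scaling (-0.12, adjusted p = 0.0858). The SUM159 estimate with the combination against untreated cells was -0.13 ± 0.057 (SE, adjusted p = 0.0615). With indisulam TAP2 gave -0.17 ± 0.077 (SE, adjusted p = 0.0844) in A549 and 0.085 ± 0.056 (SE, adjusted p = 0.23) in SUM159.

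TAPBP rose with palbociclib and fell with indisulam in both lines. It encodes tapasin, which holds the empty class I molecule at the transporter, and lies at chr6:33299694-33314284 on the minus strand with no overlapping gene. Its level in A549 was 101 and 93.05 CPM untreated, 130.3 and 130.04 CPM with palbociclib, 77.3 and 77.9 CPM with indisulam and 100.5 and 98.3 CPM with the combination. The same groups of SUM159 gave 146 and 151, 172 and 174, 125 and 129 and 171 and 166 CPM. The combination libraries overlapped the untreated ones in A549 and lay above them in SUM159.

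The change of TAPBP with palbociclib was 0.42 ± 0.047 (SE, adjusted p = 5.49e-06) in A549, 34.1% in mean CPM, and 0.22 ± 0.039 (SE, adjusted p = 0.000117) in SUM159, 16.5%. With indisulam it was -0.32 ± 0.049 (SE, adjusted p = 8.37e-05) in A549 and -0.22 ± 0.039 (SE, adjusted p = 0.000203) in SUM159. With the combination it was 0.033 ± 0.049 (SE, adjusted p = 0.585) in A549, not past the threshold, and 0.18 ± 0.039 (SE, adjusted p = 0.000496) in SUM159. The combination was above indisulam in both lines, by 0.36 ± 0.049 (SE, adjusted p = 4.51e-05) in A549 and 0.41 ± 0.038 (SE, adjusted p = 1.32e-07) in SUM159. It was below palbociclib in A549, -0.39 ± 0.047 (SE, adjusted p = 8.16e-06), while the SUM159 estimate was -0.037 ± 0.038 (SE, adjusted p = 0.442). Each call of TAPBP within a line was kept when any single library was left out. The departure from additive in SUM159 was 0.19 ± 0.054 (SE, adjusted p = 0.0639), and it passed with the crossed pairing (0.19, adjusted p = 0.0238). Under that pairing, chosen after correlations were seen, the departures called over all genes rose from 704 to 1141.

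NLRC5 is the transactivator of class I genes and lies on chromosome 16 (chr16:56989485-57083531, plus strand), where overlaps with other genes are intronic and on the other strand. Its level in A549 was 11.9 and 12.8 CPM untreated, 13.6 and 13.6 CPM with palbociclib, 12.97 and 13.2 CPM with indisulam and 11.6 and 12.1 CPM with the combination. The SUM159 groups gave 45.2 and 45.5, 50.9 and 51.9, 49.9 and 53.5 and 56.8 and 55.9 CPM. Each treated group lay above the untreated libraries in SUM159, and the combination overlapped them in A549.

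NLRC5 rose in SUM159 with palbociclib, 0.18 ± 0.052 (SE, adjusted p = 0.00653), with indisulam, 0.19 ± 0.052 (SE, adjusted p = 0.00648), and with the combination, 0.31 ± 0.051 (SE, adjusted p = 4.18e-05). The indisulam call was lost without SUM159 indisulam replicate 2 (0.14, adjusted p = 0.0959). The combination exceeded palbociclib by 0.13 ± 0.048 (SE, adjusted p = 0.0315), which missed the threshold when any 1 of its 4 libraries was left out (0.11 to 0.14, adjusted p of 0.0552 without palbociclib replicate 2 to 0.151 without combination replicate 1, with 0.131 without palbociclib replicate 1 and 0.079 without combination replicate 2). It exceeded indisulam by 0.12 ± 0.049 (SE, adjusted p = 0.0422), lost without indisulam replicate 1 (0.071, adjusted p = 0.372), combination replicate 1 (0.11, adjusted p = 0.178) or combination replicate 2 (0.13, adjusted p = 0.0892). DESeq2 and the test without the low-count filter also gave no call for either difference, and the replicate block gave an adjusted p of 0.0533 for the one from indisulam. In A549 the estimate of NLRC5 was 0.14 ± 0.087 (SE, adjusted p = 0.221) with palbociclib and -0.059 ± 0.092 (SE, adjusted p = 0.607) with the combination.

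Counted over the 9 genes, palbociclib raised 2 and lowered 0 in A549, where 43.2% of all tested genes changed (22.05% rose and 21.1% fell). In SUM159 it raised 4 and lowered 1, where 54.5% changed (25.5% rose and 28.98% fell). Indisulam raised 1 and lowered 1 in A549, where 49.2% of all genes changed (23.3% rose and 25.9% fell), and raised 1 and lowered 2 in SUM159, where 46.9% did (21.9% rose and 24.9% fell). The combination raised 3 and lowered 1 in A549, against a background of 57.8% (27.4% rose and 30.4% fell), and raised 3 and lowered 1 in SUM159, against 65.3% (32.2% rose and 33.1% fell). The shares of the members that changed, 22.2% to 55.6%, were below the background in all of these 6 comparisons except SUM159 with palbociclib, where 55.6% stood beside 54.5%. The median log2 change of the 9 genes was 0.20 with palbociclib in A549 beside 0.028 over all genes, and 0.094 in SUM159 beside 0.019. With the combination it was -0.0044 in A549 beside 0.0014, and 0.064 in SUM159 beside 0.015.

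Between the combination and palbociclib, 1 member was higher and 3 lower in A549, where 51.5% of all genes differed (23.7% higher and 27.8% lower), and 2 were higher and 1 lower in SUM159, where 48.3% did (23.4% higher and 24.9% lower). Between the combination and indisulam, 3 were higher and 0 lower in A549, where 38.8% differed (18.6% higher and 20.1% lower), and 3 were higher and 1 lower in SUM159, where 52.9% did (24.9% higher and 27.95% lower). No member departed from the sum of the single-drug changes past the threshold by edgeR, in A549 (3.53% of all genes) or SUM159 (4.38%). At an unadjusted p under 0.05 HLA-F and NLRC5 departed in A549 and TAPBP in SUM159, and DESeq2 also called none after adjustment.

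**Figure D2:**
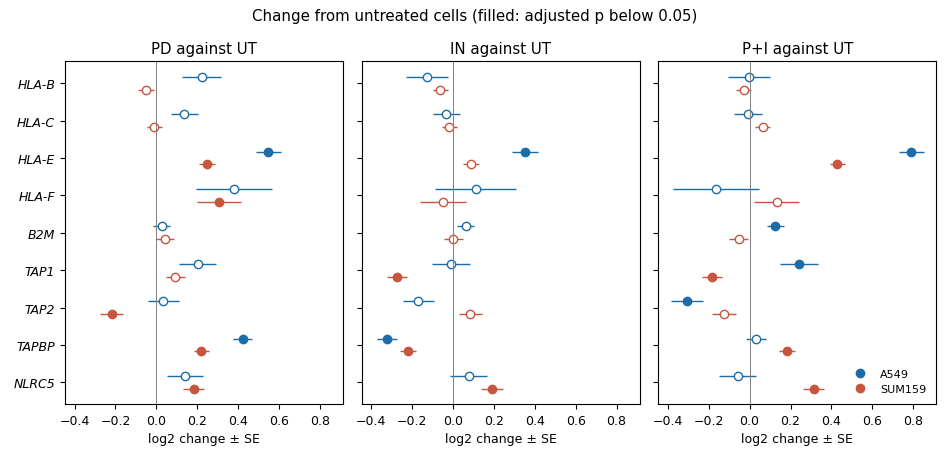
Log2 change of the 9 genes from untreated cells with palbociclib (PD), indisulam (IN) and both (P+I), with the standard error as a bar, in A549 and SUM159; filled points have an adjusted p below 0.05. HLA-E lies farthest to the right with the combination, at 0.79 in A549 and 0.43 in SUM159, HLA-B and HLA-C have open points throughout, and TAPBP lies right of 0 with palbociclib and left of 0 with indisulam.

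The response to each treatment was then compared between the lines in a single fit of all 16 libraries. In that fit the median of all genes was 0.082 for palbociclib, 0.019 for indisulam and 0.099 for the combination (response in SUM159 minus response in A549), and it moved with the scaling. Of the calls for the combination 61.8% were higher in SUM159, against 46.6% with DESeq2 size factors and 50.5% with TMM factors set within each line, a setting added once the values had been looked at. For palbociclib these shares were 75.4%, 44.02% and 53.96%. With an A549 library left out, the median of all genes lay between -0.058 and -0.029 for the combination. For palbociclib it then lay between -0.101 and -0.048. The values below without an A549 library thus include this shift of all genes.

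HLA-E responded less in SUM159 than in A549. With the combination its difference was -0.30 ± 0.071 (SE, adjusted p = 0.00234), and -0.36 (adjusted p = 0.000321) with factors set within each line. Without A549 untreated replicate 1 it was -0.50, in a fit where the median of all genes was -0.058. Without A549 combination replicate 2 it was -0.51, in a fit where that median was -0.040. With indisulam it was -0.26 ± 0.072 (SE, adjusted p = 0.0152), and this call was lost without replicate 2 of untreated A549 (-0.23, adjusted p = 0.0875), indisulam-treated A549 (-0.22, adjusted p = 0.0934), untreated SUM159 (-0.24, adjusted p = 0.0597) or indisulam-treated SUM159 (-0.26, adjusted p = 0.0511). With palbociclib it was -0.20 ± 0.071 (SE, adjusted p = 0.0625). It passed with DESeq2 (-0.30, adjusted p = 0.00574), with factors set within each line (-0.27, adjusted p = 0.0107), and without A549 untreated replicate 1 (-0.42), untreated replicate 2 (-0.32), palbociclib replicate 1 (-0.41) or palbociclib replicate 2 (-0.31).

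TAP1 and NLRC5 also differed between the lines with the combination. The difference of TAP1 was -0.36 ± 0.10 (SE, adjusted p = 0.011), and -0.42 (adjusted p = 0.00302) with factors set within each line. Without A549 untreated replicate 1 it was -0.57 and without A549 combination replicate 2 it was -0.55, both past the threshold. For NLRC5 it was 0.44 ± 0.10 (SE, adjusted p = 0.00169), and 0.38 (adjusted p = 0.00551) with factors set within each line. That call was lost without A549 untreated replicate 2 (0.25, adjusted p = 0.137) and without A549 combination replicate 1 (0.26, adjusted p = 0.106).

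The TAPBP difference with the combination, 0.22 ± 0.063 (SE, adjusted p = 0.00974), rested on the scaling. It was 0.16 (adjusted p = 0.0574) with factors set within each line and 0.13 with DESeq2 (adjusted p = 0.183). Without A549 untreated replicate 1 it was -0.00046, without A549 untreated replicate 2 it was 0.14, without A549 combination replicate 1 it was 0.089 and without A549 combination replicate 2 it was 0.050. Without SUM159 untreated replicate 1 (0.19, adjusted p = 0.0583) or SUM159 combination replicate 1 (0.18, adjusted p = 0.0635) it missed the threshold as well. For palbociclib the TAPBP difference, -0.10 ± 0.062 (SE, adjusted p = 0.311), passed with DESeq2 (-0.20, adjusted p = 0.0439) and without A549 untreated replicate 1 (-0.34), untreated replicate 2 (-0.21), palbociclib replicate 1 (-0.28) or palbociclib replicate 2 (-0.24).

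Counted over the 9 genes, 0 differed in the palbociclib response by edgeR (12.8% of all genes; 1 member at an unadjusted p under 0.05, and 2 with DESeq2), 1 was lower in SUM159 in the indisulam response (15.01% of all genes differed, 8.04% higher and 6.97% lower) and 2 were higher and 2 lower in the combination response (30.9%, with 19.1% higher and 11.8% lower). B2M did not pass with the combination, -0.11 ± 0.064 (SE, adjusted p = 0.206), but did with DESeq2 (-0.20, adjusted p = 0.0283), with factors set within each line (-0.17, adjusted p = 0.044) and without A549 untreated replicate 1 (-0.29), untreated replicate 2 (-0.23), combination replicate 1 (-0.25) or combination replicate 2 (-0.27). HLA-B and HLA-C gave no such call under TMM, with differences of 0.041 ± 0.097 (SE, adjusted p = 0.817) and 0.14 ± 0.074 (SE, adjusted p = 0.163) for the combination. TAP2 missed the threshold, with 0.26 ± 0.096 (SE, adjusted p = 0.0743) for indisulam and 0.25 ± 0.098 (SE, adjusted p = 0.0587) for the combination.

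**Figure D3:**
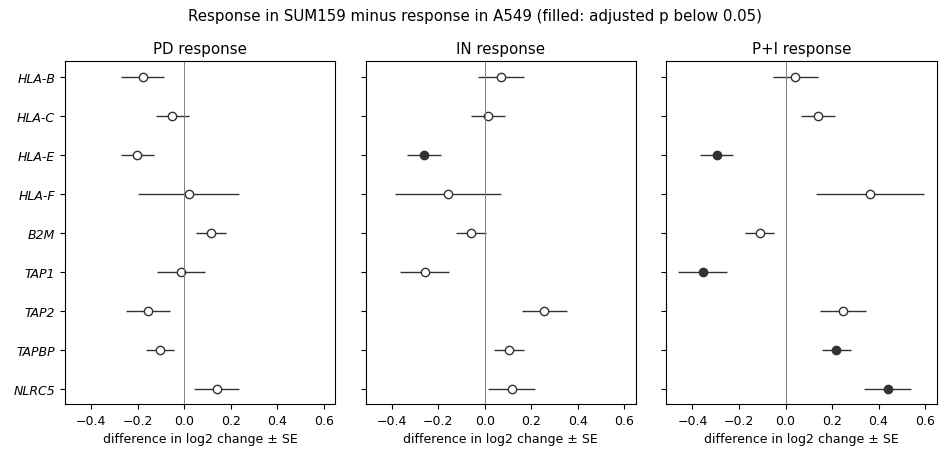
Response in SUM159 minus response in A549 for the 9 genes with palbociclib (PD), indisulam (IN) and both (P+I), as a difference in log2 change with its standard error, from the fit of all 16 libraries; filled points have an adjusted p below 0.05. For the combination HLA-E (-0.30) and TAP1 (-0.36) lie left of 0, and TAPBP (0.22) and NLRC5 (0.44) lie right of it.

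The promoters of 4 members are printed to show how the letters differ between a gene that changed with both drugs, TAPBP, a gene of the transporter, TAP1, a heavy chain without a call, HLA-B, and the light chain, B2M. They come from RefSeq (GRCh38.p14), run 5′ to 3′ from 250 bases before to 50 bases after the start site, and matched 7 of the 9 members (8 promoters, of which TAP1 has 2). HLA-E and NLRC5 had no promoter in this set and were not searched. Capitals mark GAAA followed after any 2 bases by GAAA, the core of an interferon-stimulated response element, CCAAT, which NF-Y binds, and TGACG, which CREB family factors bind, on either strand; overlapping matches run together. The windows were chr6:33314029-33314328 (minus strand) for TAPBP, chr6:32853655-32853954 (minus strand) for TAP1, chr6:31357130-31357429 (minus strand) for HLA-B and chr15:44711267-44711566 (plus strand) for B2M.
TAPBP: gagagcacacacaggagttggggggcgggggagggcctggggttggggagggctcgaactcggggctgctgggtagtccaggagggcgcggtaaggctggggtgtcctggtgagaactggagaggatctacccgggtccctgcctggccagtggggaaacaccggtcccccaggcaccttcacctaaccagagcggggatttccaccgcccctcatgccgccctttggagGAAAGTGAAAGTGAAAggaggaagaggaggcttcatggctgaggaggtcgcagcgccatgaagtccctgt
TAP1: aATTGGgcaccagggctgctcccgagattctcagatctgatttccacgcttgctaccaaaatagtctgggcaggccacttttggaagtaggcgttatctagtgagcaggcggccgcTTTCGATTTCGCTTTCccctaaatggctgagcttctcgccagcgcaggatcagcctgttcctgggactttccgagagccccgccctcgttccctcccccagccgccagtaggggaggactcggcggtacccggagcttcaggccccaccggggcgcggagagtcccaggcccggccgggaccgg
HLA-B: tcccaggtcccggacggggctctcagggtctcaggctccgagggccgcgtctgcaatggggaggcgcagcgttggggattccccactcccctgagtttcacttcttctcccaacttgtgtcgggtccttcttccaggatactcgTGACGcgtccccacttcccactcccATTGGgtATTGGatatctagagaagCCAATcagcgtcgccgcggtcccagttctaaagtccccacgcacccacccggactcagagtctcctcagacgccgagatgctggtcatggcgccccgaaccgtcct
B2M: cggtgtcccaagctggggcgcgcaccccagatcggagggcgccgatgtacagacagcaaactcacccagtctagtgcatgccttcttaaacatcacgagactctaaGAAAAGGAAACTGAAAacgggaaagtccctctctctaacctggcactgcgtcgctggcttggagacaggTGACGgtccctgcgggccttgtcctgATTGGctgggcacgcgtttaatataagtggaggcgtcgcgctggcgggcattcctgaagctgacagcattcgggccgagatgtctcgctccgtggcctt

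The exact letters searched for the interferon element were in the windows of TAPBP, TAP1 (the printed start site) and B2M, with 2 overlapping matches each. HLA-F and TAP2 had 1 match each, and HLA-B and HLA-C had none. Variants of these letters were not searched, so a window without a match can still hold an interferon element. These exact letters were held by 3.57% of all 35116 promoters listed. CCAAT was matched 3 times in HLA-B, 4 times in HLA-C, 2 times in HLA-F and 1 time each in B2M and TAP1, and was held by 34.6% of all promoters. TGACG was matched 1 time each in HLA-B, HLA-C, B2M and TAP2, and was held by 24.6%. Of the 5 genes whose windows held the exact letters of the interferon element, with palbociclib TAPBP rose in both lines, HLA-F rose and TAP2 fell in SUM159 with no call in A549, and TAP1 and B2M had no call in either line. A part of the element in these changes was not tested.

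Among 57 further genes of the pathway, in 9 lists, 48 were tested in A549 and 51 in SUM159. Palbociclib raised 14 and lowered 11 of them in A549 and raised 13 and lowered 15 in SUM159; indisulam raised 15 and lowered 10 in A549 and raised 12 and lowered 16 in SUM159. The combination raised 18 and lowered 13 in A549 and raised 16 and lowered 18 in SUM159. As shares of the tested genes, 52.1%, 52.1% and 64.6% changed in A549 with palbociclib, indisulam and both, beside 43.2%, 49.2% and 57.8% of all genes, and 54.9%, 54.9% and 66.7% in SUM159, beside 54.5%, 46.9% and 65.3%. No difference between the pathway and all genes was tested. The median over the tested genes was 0.11 in A549 and -0.019 in SUM159 with the combination, beside 0.0014 and 0.015 over all genes.

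The immunoproteasome genes, which encode the interferon-inducible catalytic subunits PSMB8, PSMB9 and PSMB10 and the activators PSME1 and PSME2, were split between genes with and without a call. In A549, 3 of 5 rose and 0 fell with palbociclib, where 22.05% of all genes rose and 21.1% fell. PSMB8 rose by 0.28 ± 0.078 (SE, adjusted p = 0.0104), PSME1 by 0.30 ± 0.049 (SE, adjusted p = 0.000217) and PSME2 by 0.16 ± 0.060 (SE, adjusted p = 0.0483). The estimates of PSMB9 and PSMB10 were 0.18 ± 0.12 (SE, adjusted p = 0.25) and 0.56 ± 0.22 (SE, adjusted p = 0.0517). In SUM159, where 25.5% of all genes rose with palbociclib, 3 of 5 did. PSMB10 rose by 0.44 ± 0.15 (SE, adjusted p = 0.0207), PSME1 by 0.11 ± 0.044 (SE, adjusted p = 0.0472) and PSME2 by 0.15 ± 0.040 (SE, adjusted p = 0.00368). PSMB8 gave 0.079 and PSMB9 0.16. PSMB10 was low there, at 2.99 and 3.26 CPM untreated and 4.58 and 3.98 CPM with palbociclib. It shares exon bases with an unnamed gene on its strand. PSMB9 shares exon bases with PSMB8-AS1 on its strand and with PSMB8 on the other, and PSME2 with MIR7703 on its strand. The list median was 0.28 in A549 and 0.15 in SUM159. In A549 the palbociclib call of PSMB8 was lost without untreated replicate 1 (0.20) or palbociclib replicate 2 (0.23) and with DESeq2, and that of PSME2 without untreated replicate 1 (0.21), untreated replicate 2 (0.10) or palbociclib replicate 2 (0.077), with DESeq2 and with the replicate block (0.15, adjusted p = 0.0531). In SUM159 the call of PSMB10 was lost without untreated replicate 1 (0.39) or palbociclib replicate 1 (0.36) and with DESeq2, and that of PSME1 without untreated replicate 1 (0.11), untreated replicate 2 (0.11) or palbociclib replicate 1 (0.066), with DESeq2 and with the replicate block (0.11, adjusted p = 0.0604).

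With indisulam, 3 of the 5 fell in SUM159, where 24.9% of all genes did, with changes of -0.29 ± 0.048 (SE, adjusted p = 0.000114) for PSMB8, -0.30 ± 0.075 (SE, adjusted p = 0.00396) for PSMB9 and -0.18 ± 0.045 (SE, adjusted p = 0.00337) for PSME1. The PSMB9 call was lost without SUM159 untreated replicate 1 (-0.18, adjusted p = 0.113) and indisulam replicate 1 (-0.23, adjusted p = 0.0569). PSMB10 and PSME2 gave -0.30 and -0.056 there. In A549 PSME2 rose, 0.17 ± 0.060 (SE, adjusted p = 0.0284), a call lost without untreated replicate 2 (0.13), without indisulam replicate 2 (0.13) and with DESeq2, and the other 4 gave -0.10 for PSMB8, -0.18 for PSMB9, -0.23 for PSMB10 and 0.0089 for PSME1. With the combination PSMB8 rose in A549, 0.22 ± 0.080 (SE, adjusted p = 0.0265), and fell in SUM159, -0.23 ± 0.047 (SE, adjusted p = 0.000427), the same directions as TAP1, which lies beside it on chromosome 6. The A549 call was lost without untreated replicate 1 (0.15) or combination replicate 1 (0.19) and with DESeq2, and the SUM159 call with total-count scaling (-0.081, adjusted p = 0.145). PSME1 rose with the combination in A549, 0.25 ± 0.050 (SE, adjusted p = 0.000619), and gave -0.042 in SUM159; the remaining estimates with the combination lay between 0.078 and 0.23 in A549 and between -0.14 and 0.11 in SUM159. The constitutive counterparts PSMB5, PSMB6 and PSMB7 changed by at most 0.30 in size, with all 3 lower in SUM159 with the combination, where 33.1% of all genes fell.

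IRF1, an interferon-induced activator of class I genes, rose in A549 with palbociclib, 0.27 ± 0.10 (SE, adjusted p = 0.0478), and with the combination, 0.51 ± 0.11 (SE, adjusted p = 0.000786), with 0.16 for indisulam, and its SUM159 estimates lay between -0.031 and 0.0018. The palbociclib call of IRF1 was lost without A549 untreated replicate 1 (0.14), without palbociclib replicate 2 (0.15) and with DESeq2. The interferon genes IFNB1, IFNG and IFNL3 had 0 counts in every library, and IFNL1 and IFNL2 reached at most 0.14 and 0.048 CPM.

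Of the 11 promoter factors, palbociclib raised 3 and lowered 4 in A549 and raised 2 and lowered 8 in SUM159, and indisulam raised 3 and lowered 2 in A549 and raised 2 and lowered 3 in SUM159. The combination raised 5 and lowered 4 in A549 and raised 1 and lowered 6 in SUM159. The shares called were 63.6%, 45.5% and 81.8% in A549 with palbociclib, indisulam and both, beside 43.2%, 49.2% and 57.8% of all genes, and 90.9%, 45.5% and 63.6% in SUM159, beside 54.5%, 46.9% and 65.3%. None of these 11 was named by the rule on size, and IRF1 was named in advance.

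EZH2 fell in every comparison with untreated cells, together with most of the PRC2 core. Its level was 69.5 and 72.9 CPM in untreated A549 and 7.87 and 9.23 CPM with the combination, and 61.3 and 58.8 and 15.001 and 14.5 CPM in SUM159. The fall was -1.78 ± 0.068 (SE, adjusted p = 3.02e-11), -1.28 ± 0.067 (SE, adjusted p = 2.22e-09) and -3.06 ± 0.081 (SE, adjusted p = 2.42e-13) in A549 with palbociclib, indisulam and both. In SUM159 it was -1.17 ± 0.055 (SE, adjusted p = 1.20e-11), -0.66 ± 0.053 (SE, adjusted p = 3.87e-08) and -2.03 ± 0.060 (SE, adjusted p = 1.31e-14). Of the 3 core genes EZH2, EED and SUZ12, all fell except EED with indisulam in A549. Of all genes, 21.1%, 25.9% and 30.4% fell in A549 with palbociclib, indisulam and both, and 28.98%, 24.9% and 33.1% fell in SUM159.

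Among genes of peptide trimming and folding, 3 of 6 rose and 3 fell with indisulam in A549, where 49.2% of all genes changed, and 2 rose and 3 fell in SUM159, where 46.9% did; the same 3 chaperones, CALR, CANX and PDIA3, were the ones that fell in both lines, by 0.14 to 0.69 in size. With the combination 3 rose and 3 fell in A549, and 1 rose and 3 fell in SUM159, beside 57.8% and 65.3% of all genes changed. TAPBPL, a tapasin-related editor of peptides, rose with indisulam in SUM159, 0.68 ± 0.11 (SE, adjusted p = 0.000113), and with the combination in A549, 0.78 ± 0.20 (SE, adjusted p = 0.0039), from 2.38 and 4.11 to 5.57 and 5.48 CPM; it shares exon bases with CD27 and, on the other strand, VAMP1. The A549 value was 0.43 (adjusted p = 0.0816) without untreated replicate 1 and 1.22 without untreated replicate 2. ERAP2, an aminopeptidase that trims peptides, rose with the combination in A549, 0.78 ± 0.16 (SE, adjusted p = 0.000852), from 3.10 and 4.11 to 6.26 and 6.05 CPM, and gave 0.019 in SUM159, where it was at 93.4 to 105 CPM in all libraries.

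Among the 8 other class I-like chains, MR1, which presents vitamin B metabolites to MAIT cells, rose with palbociclib in A549, 1.21 ± 0.090 (SE, adjusted p = 6.59e-08), from 8.16 and 8.51 to 19.1 and 19.4 CPM. In SUM159 its level also went up with palbociclib, from 16.98 and 16.5 to 32.6 and 33.5 CPM. Indisulam alone left MR1 below the untreated level in both lines, at 4.41 and 4.68 CPM in A549 and 11.4 and 11.4 CPM in SUM159. MICB, a stress ligand of the NKG2D receptor, fell in A549 with palbociclib, -0.87 ± 0.15 (SE, adjusted p = 0.000248). Its SUM159 level was 36.5 and 36.4 CPM untreated and 31.99 and 31.8 CPM with palbociclib. HFE, a class I-like chain that regulates iron uptake, fell with indisulam in A549, -0.89 ± 0.068 (SE, adjusted p = 1.09e-07). Its SUM159 level was also lower with indisulam, 21.4 and 20.4 CPM untreated and 14.5 and 13.6 CPM treated. ULBP1, a further NKG2D ligand, rose in SUM159 with the combination, 1.34 ± 0.33 (SE, adjusted p = 0.00185), from a low level of 0.772 and 0.383 to 1.72 and 1.18 CPM. In A549 it was at 2.95 and 3.61 CPM untreated and 2.44 and 3.00 CPM with the combination. Palbociclib raised 2 and lowered 1 of the 7 tested chains in A549 and raised 3 and lowered 1 of 8 in SUM159. Indisulam raised 1 and lowered 2 in A549 and raised 2 and lowered 2 in SUM159, and the combination raised 2 and lowered 2 in A549 and raised 4 and lowered 2 in SUM159. The shares called in A549 were 42.9%, 42.9% and 57.1% with palbociclib, indisulam and both, beside 43.2%, 49.2% and 57.8% of all genes, and the SUM159 counts of 4, 4 and 6 of 8 stand beside 54.5%, 46.9% and 65.3%.

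Of 11 interferon receptor and kinase genes none fell past the threshold in the 6 comparisons with untreated cells. With palbociclib 3 rose in A549 and 3 in SUM159, where 22.05% and 25.5% of all genes rose. With indisulam 6 and 5 rose, beside 23.3% and 21.9% of all genes, and with the combination 5 and 7, beside 27.4% and 32.2%. Between the combination and a single drug some were lower, 1 against palbociclib and 1 against indisulam in A549 and 2 against indisulam in SUM159. Of all genes, 27.8%, 20.1% and 27.95% were lower in these comparisons. IRF9, a subunit of an interferon-activated transcription complex that also holds STAT2, rose with indisulam by 1.52 ± 0.38 (SE, adjusted p = 0.00413) in A549, from 0.878 and 0.845 to 2.14 and 2.84 CPM, and by 1.12 ± 0.32 (SE, adjusted p = 0.0077) in SUM159, where the call was lost without indisulam replicate 2 (0.98, adjusted p = 0.0665); it shares exon bases with an unnamed gene on its strand. STAT2 rose with palbociclib in SUM159, 1.11 ± 0.098 (SE, adjusted p = 4.60e-08), from 29.8 and 28.5 to 59.8 and 66.2 CPM. Its A549 level was also higher with palbociclib, 38.1 and 38.2 CPM untreated and 59.2 and 55.2 CPM treated.

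Of 5 class II genes, which serve presentation to CD4 T cells, 2 were tested in A549 and 4 in SUM159. HLA-DMB, a subunit of a class II peptide editor, was counted at 32.5 to 48.8 CPM in A549, and at 0.096 to 0.31 CPM in SUM159. In A549 HLA-DMA lay between 4.54 and 10.7 CPM and the other 3 at or below 0.16 CPM, and in SUM159 the other 4 at or below 4.27 CPM. HLA-DMA, the partner of HLA-DMB, rose with palbociclib in SUM159, 1.00 ± 0.19 (SE, adjusted p = 0.000262), from 2.03 and 1.63 to 3.53 and 3.77 CPM. It overlaps exons of BRD2 on the other strand. On its own strand it shares exon bases with an unnamed gene, as does HLA-DMB. The A549 level of HLA-DMA was also higher with palbociclib, 5.53 and 6.76 CPM untreated and 8.42 and 10.7 CPM treated. CIITA, the class II counterpart of NLRC5, rose in SUM159 with indisulam, 0.96 ± 0.21 (SE, adjusted p = 0.0011), and with the combination, 1.40 ± 0.19 (SE, adjusted p = 5.91e-06), from 1.35 and 1.72 CPM untreated to 4.27 and 3.84 CPM; in A549 it was at or below 0.087 CPM. Palbociclib raised 2 and lowered 0 in each line, indisulam raised 0 and lowered 1 in A549 and raised 1 and lowered 0 in SUM159, and the combination raised 1 in A549 and 3 in SUM159 and lowered 0. The share of all genes that rose in A549 was 22.05%, 23.3% and 27.4% for palbociclib, indisulam and both, and in SUM159 it was 25.5%, 21.9% and 32.2%.

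**Figure D4:**
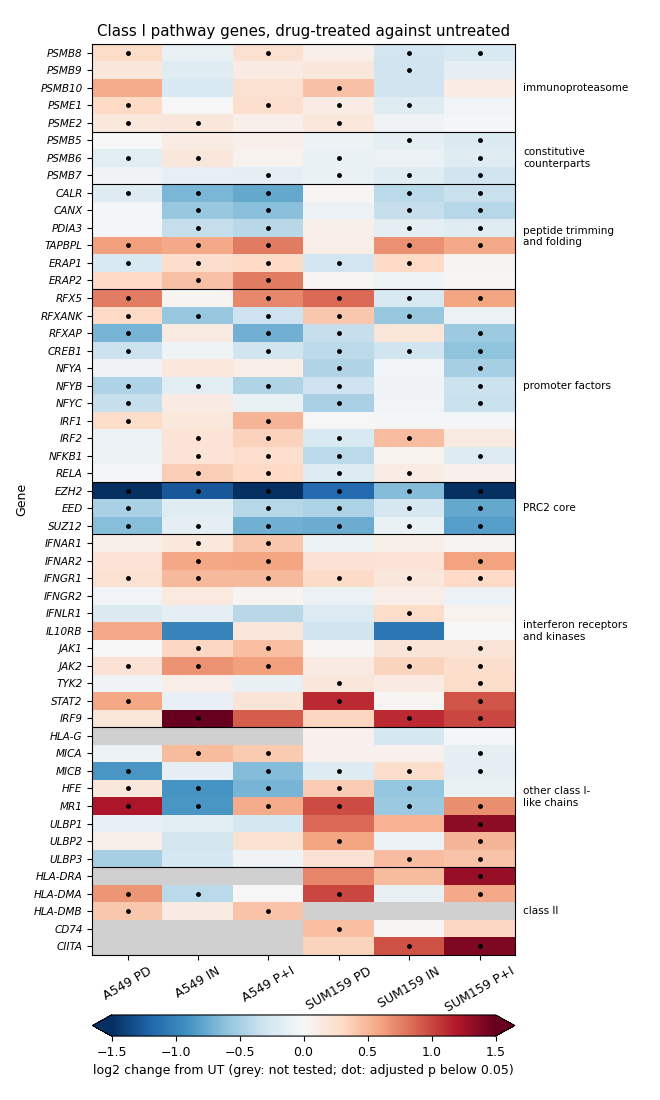
Log2 change from untreated cells of the pathway genes by list, in A549 and SUM159 with palbociclib (PD), indisulam (IN) and both (P+I); colours are limited to 1.5 in size, dots mark an adjusted p below 0.05 and grey cells were not tested. The EZH2 row is blue in all 6 columns, and the rows of CALR, CANX and PDIA3 are blue with dots in the indisulam and combination columns.

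Across the 8 group means, centred within each line, the members did not share one pattern. TAPBP and HLA-B had a Pearson r of 0.93 and TAPBP and HLA-C one of 0.88, while HLA-E had 0.61 with B2M and -0.66 with TAP2, and B2M and TAP2 had -0.92. Among 9604 genes of at least 5 CPM in each line, those most like HLA-E were TRIQK (r = 0.99) and CHRM3 (0.99), and those most like TAPBP were NEK6 (0.99) and SUMF1 (0.99). For HLA-B they were NRP1 (0.99) and TRIM2 (0.98), for HLA-C TXNRD2 (0.98) and CNTNAP3 (0.96), and for HLA-F SLC39A7 (0.98) and TPCN2 (0.98). For B2M they were TCEAL9 (0.96) and EFCAB14 (0.95), for TAP1 TMSB10 (0.98) and PNMA1 (0.98), for TAP2 CYB5B (0.94) and MRPL41 (0.92), and for NLRC5 GNPTG (0.98) and B4GALNT4 (0.98). These are descriptions over 8 points that share scaling and untreated libraries within a line.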

How the data were processed

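RNA was isolated with on-column DNase treatment and made into stranded poly(A) libraries (Illumina). The authors aligned reads to GRCh38 with HISAT2 2.2.1 and counted them per gene with HTSeq; the strand setting, overlap mode, HTSeq version and annotation release were not given in the sources used here. The deposited values are whole-number counts per Ensembl gene, unnormalised, for 58676 identifiers, and GENCODE release 44 gave 58207 of them names, lengths and positions. Rows that name no gene (ambiguous, not uniquely aligned or without feature) held 13.2% to 16.4% of counts and were left out. Libraries held 18306636 to 34075588 gene counts, and floors of 3 counts cover counting error only.

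Groups were the 4 treatments in each of 2 lines, from the sample labels. Per line, edgeR 4.0.16 (R 4.3.3) quasi-likelihood fits with filterByExpr, TMM factors and Benjamini-Hochberg adjustment over all tested genes gave the log2 changes; SE is the log2 change divided by the square root of F. Between-line comparisons came from 1 fit of all 16 libraries. An adjusted p below 0.05 was called. The fits were tested on simulated data. The counts of duplicates varied beyond chance in each group (chi-square per degree of freedom 1.65 to 10.05), so none were merged. Counts per gene do not resolve isoforms.

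All 9 members were tested in every comparison, and not every estimate is printed. The immunoproteasome genes and IRF1 were named in every comparison with untreated cells. From the other lists the rule named the 3 largest changes past the threshold that had 1 direction in both pairs of equal number. CALR, CANX and PDIA3 and the absent interferon genes were named after their values were seen. The members and lists were chosen with earlier results of these data known; 1 gene of the pathway lists and 1 leukocyte marker are not reported here. The alternatives were DESeq2 1.42.0 (size factors, and its Wald test), total-count scaling, no low-count filter, a replicate block and leaving out each library.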

Additional observations from a re-analysis of the deposited data

Results flagged for a closer look

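Among the members, the immunoproteasome genes and IRF1, 9 responses differed between the lines by the test of the difference itself. That test took the response in SUM159 minus the response in A549 in the fit of all 16 libraries. Of all genes, 30.9% differed for the combination, 15.01% for indisulam and 12.8% for palbociclib. No palbociclib response was among the 9. For the combination these were HLA-E at -0.30, TAP1 at -0.36, TAPBP at 0.22 and NLRC5 at 0.44, and, of the immunoproteasome and interferon genes, PSMB8 at -0.39, PSME1 at -0.22 and IRF1 at -0.47. For indisulam they were HLA-E at -0.26 and PSME2 at -0.23. The medians of all genes in these comparisons were 0.099 and 0.019. Without 1 A549 library the median for the combination lay between -0.058 and -0.029. The PSME2 difference was lost with DESeq2 (-0.24, adjusted p = 0.0509) and with TMM factors set within each line (-0.20, adjusted p = 0.0741), and without A549 untreated replicate 2 (-0.19), A549 indisulam replicate 2 (-0.20), SUM159 untreated replicate 1 (-0.23), SUM159 untreated replicate 2 (-0.23), SUM159 indisulam replicate 1 (-0.21) or SUM159 indisulam replicate 2 (-0.24). The PSME1 value was -0.42 without A549 untreated replicate 1, -0.38 without A549 combination replicate 1 and -0.36 without A549 combination replicate 2. For PSMB8 and IRF1 the value was -0.60 and -0.74 without A549 untreated replicate 2.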

How the results depend on the processing

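Of the 48 member values past the threshold in the main fits, 41 passed with DESeq2's test, 47 with DESeq2 size factors, 45 with total-count scaling and 46 without the low-count filter, all with the same sign; of 212 refits with a library left out, 35 lost the call and 1 of these changed sign. A further 33 of 71 values past the threshold in no fit of all libraries changed sign in some refit, none larger than 0.16 in size. The replicate numbers do not pair the libraries: deviations of same-numbered libraries correlated at -0.11 to 0.11, and the block kept 47 of 48 calls, losing NLRC5 in SUM159 between the combination and indisulam (0.13, adjusted p = 0.0533). A crossed pairing, chosen after negative correlations were seen, called 7 members between the combination and palbociclib in A549, beside 8588 of 15744 genes. It called 1 member departing from additive in SUM159, beside 1141 of 16080 genes. With DESeq2's test 15, 15 and 12 pathway genes were called in A549 (palbociclib, indisulam, and the combination against indisulam). Over all 15744 genes that test called 4709, 5708 and 4133. The 1 pathway gene departing from additive in SUM159 fell to 0 with DESeq2, its size factors or the block. Total-count scaling called 5 members with palbociclib in A549, beside 6899 of 15744 genes. It called 7 between the combination and indisulam in SUM159, beside 8623 of 16080 genes. It also turned HLA-C with palbociclib to 0.095 and HLA-B with the combination to 0.12 in SUM159. HLA-C was 0.015 without the filter. Members differing in the palbociclib response numbered 2 with DESeq2, beside 1748 of 17764 genes, and 2 with its size factors, beside 2349. There was 1 with total-count scaling, beside 2077, and 1 with no filter, beside 2119 of 34694. TMM within each line called 1, beside 2220 of 17764, and 2 for indisulam, beside 2627.

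With a library left out, members called ranged from 2 to 4 (A549 palbociclib), 2 to 3 (A549 combination), 2 to 5 (SUM159 combination against indisulam), 0 to 5 (palbociclib response) and 0 to 2 (indisulam response). Pathway genes ranged from 16 to 23 (A549 palbociclib), 13 to 18 (A549 combination against indisulam), 5 to 11 (palbociclib response), 6 to 12 (indisulam response), 0 to 2 (departure from additive, A549) and 0 to 1 (SUM159). The number of all genes called moved in these refits as well, so the ranges describe the refits and are no result about the members. In SUM159 with palbociclib HLA-C ranged from -0.028 to 0.0097 and B2M from -0.014 to 0.11, and the TAPBP combination response from -0.00046 to 0.24. Except for the library-set factors, the causes were not tested. Duplicates from 1 experiment, HLA allele differences and unknown strand counting limit all values.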
